A study of Mus musculus with 4 samples.

Results

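Intestinal epithelial cells made up 364 of 58963 barcodes when lamina propria cells of the small intestine were profiled by single-cell RNA-Seq, with 330 of 22087 barcodes in the WT library and 34 of 36876 in the A20ZF7 library. They were chosen by their own transcripts. A barcode had to hold at least 500 unique molecular identifiers (UMIs, each counting 1 captured RNA molecule), 200 to 2500 genes and at most 15% mitochondrial UMIs. It also had to hold at least 3 UMIs of *Epcam*, *Krt8*, *Krt18* and *Krt19* in sum, from at least 2 of these 4 genes, with at most 1 UMI each of a T cell set (*Cd3e*, *Cd3d*, *Cd3g*, *Trac*, *Trbc2*) and a fibroblast set (*Col1a1*, *Col1a2*, *Col3a1*, *Dcn*, *Des*). A20ZF7 mice carry a knock-in of point mutations, in every cell, in the seventh zinc finger of A20, the ubiquitin-editing protein encoded by *Tnfaip3* that restrains NF-κB signaling. The mutations disable binding to linear ubiquitin, and WT mice carry normal A20. Each genotype was 1 gene expression library of 2 pooled mice aged 12 weeks, with no treatment named, made with a 5′ kit from cells that had passed a negative selection for T cells and ILCs. Because there is 1 library per genotype, no test between genotypes was possible, and the 95% intervals given after values reflect counting error alone. Whether a value is higher or lower is therefore said of these 2 pools.

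The epithelium of the small intestine is a single sheet of cells renewed from stem cells at the base of the crypts. Its absorptive enterocytes take up fats, sugars, peptides and bile acids along the villi, goblet cells make mucus, and Paneth, enteroendocrine and tuft cells secrete antimicrobial peptides, hormones and alarm signals. IL-22 made by T cells and innate lymphocytes acts on this sheet through the receptor chains encoded by *Il22ra1* and *Il10rb*, and is known to induce the antimicrobial lectins of the Reg3 family. A lamina propria preparation is meant to leave the epithelium behind, since the tissue is first shaken in EDTA to loosen it. The cells described here are those that stayed with the lamina propria cells and passed the selection, so their number does not measure the epithelium of the mice.

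The share of epithelial barcodes was 1.49% (1.34 to 1.66) in WT and 0.0922% (0.0639 to 0.129) in A20ZF7, a share 16.2-fold higher in WT (11.4 to 23.1). As A20ZF7 over WT the ratio was 0.0617 (0.0434 to 0.0878). It was 0.158 when WT barcodes that carried both hashtags of the pooled mice, 91.5% of the WT members, were left out. A20ZF7 barcodes could not be sorted by hashtag and were all kept. Enough epithelial marker UMIs were found in 474 WT and 66 A20ZF7 barcodes. The T cell limit removed 57 and 19 of these, and the fibroblast limit removed another 87 and 13. The removed barcodes also held enterocyte transcripts, at 66325 CPM (UMIs scaled to a total of 1000000 per group) in the 57 WT barcodes above the T cell limit and 16396 CPM in the 19 from A20ZF7. With 1 pool per genotype, the difference in share cannot be told apart from a difference between preparations, and fewer epithelial cells cannot be told apart from cells with less RNA.

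Members differed in depth between the libraries. Over all barcodes within the limits the median was 916 UMIs in WT and 952 UMIs in A20ZF7. WT members had between 553 and 10702 UMIs, with a median of 4417 UMIs, 1672 genes and 6.37% mitochondrial UMIs. A20ZF7 members had between 513 and 8750 UMIs, with a median of 1840 UMIs, 972 genes and 5.63% mitochondrial UMIs. In sum this gave 1466305 UMIs in WT and 81368 UMIs in A20ZF7, where 3 UMIs of a gene, the floor used for a count of 0, correspond to 2.05 and 36.9 CPM. The deepest A20ZF7 barcode alone gave 10.8% of all A20ZF7 UMIs, against 0.73% in WT. Between the libraries 1159 barcode sequences within the limits were shared, but none belonged to a member in both. Of the WT members, 15 had a barcode that was also within the limits in A20ZF7, and of the A20ZF7 members 2 had one in WT.

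The label was checked on genes that the choice did not use. Of 14 other epithelial genes, among them *Cdh1* (E-cadherin), *Vil1* (villin, an actin bundler of the brush border) and the claudins *Cldn3* and *Cldn7*, every one was detected in both libraries. Their summed level was 10337 CPM in WT and 8996 CPM in A20ZF7, against 83.2 and 28.7 CPM in barcodes chosen by T cell genes in the same way (2767 in WT with a median of 923 UMIs, 7425 in A20ZF7 with a median of 1142 UMIs). Where the higher of the groups reached 100 CPM and 20 UMIs, 11 of 11 of them in WT and 9 of 9 in A20ZF7 were at least 2-fold higher in epithelial members, where 34.5% of 2346 genes in WT and 14.8% of 1683 genes in A20ZF7 were. These counts follow from the choice by related genes and from a filter that such genes pass where they are high, and they are given as a description. Of the 4 genes that chose the members, which are given as values alone, the adhesion gene *Epcam* was at 1114 CPM in WT and 1303 CPM in A20ZF7, and the keratins were *Krt8* at 1763 and 3712 CPM, *Krt18* at 59.3 and 344 CPM and *Krt19* at 473 and 1340 CPM in the same order. Each of the 330 WT and 34 A20ZF7 members held at least 1 UMI of the 14 genes. So did 15.3% of 222 WT and 10.2% of 127 A20ZF7 barcodes with 1 marker UMI.

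Leukocyte and plasma cell transcripts were present at lower levels than in T-gated barcodes. The 4 leukocyte genes (*Ptprc*, *Cd52*, *Laptm5*, *Coro1a*), none at 0, summed to 140 CPM in WT and 455 CPM in A20ZF7, against 3325 and 3304 CPM in T-gated barcodes; *Cd52* took the most UMIs in WT and *Ptprc* in A20ZF7. *Gzma*, a granzyme of cytotoxic and intraepithelial lymphocytes, was at 14.3 CPM in WT members and 639 CPM in A20ZF7 members, with 2476 CPM in A20ZF7 T-gated barcodes, and 21 and 20 of its 52 A20ZF7 UMIs lay in 2 barcodes. The other *Gzma* counts were 4 or fewer. Plasma cell genes, led by *Igha*, summed to 3396 CPM in WT and 971 CPM in A20ZF7, against 14272 and 14277 CPM in T-gated barcodes. A single WT barcode held 35.7% of the WT sum, and the median share of a barcode's UMIs was 0.0196% in WT and 0.064% in A20ZF7, so the sum and the median differed in direction. No endothelial, mast cell or B cell list passed 25 CPM in either library. Some other lists were higher in A20ZF7 members, each on at most 17 A20ZF7 UMIs. Other stromal genes were at 40.2 and 184 CPM and macrophage genes at 6.82 and 98.3 CPM, WT first. Smooth muscle genes were at 99.6 and 209 CPM and innate lymphoid genes at 113 and 184 CPM. The part of these transcripts in the differences below was not tested. With members limited to at most 1 UMI of other cell types, 271 in WT and 20 in A20ZF7, the IL-22 response ratio was 6.65 and the enterocyte ratio 0.114.

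**Figure D1:**
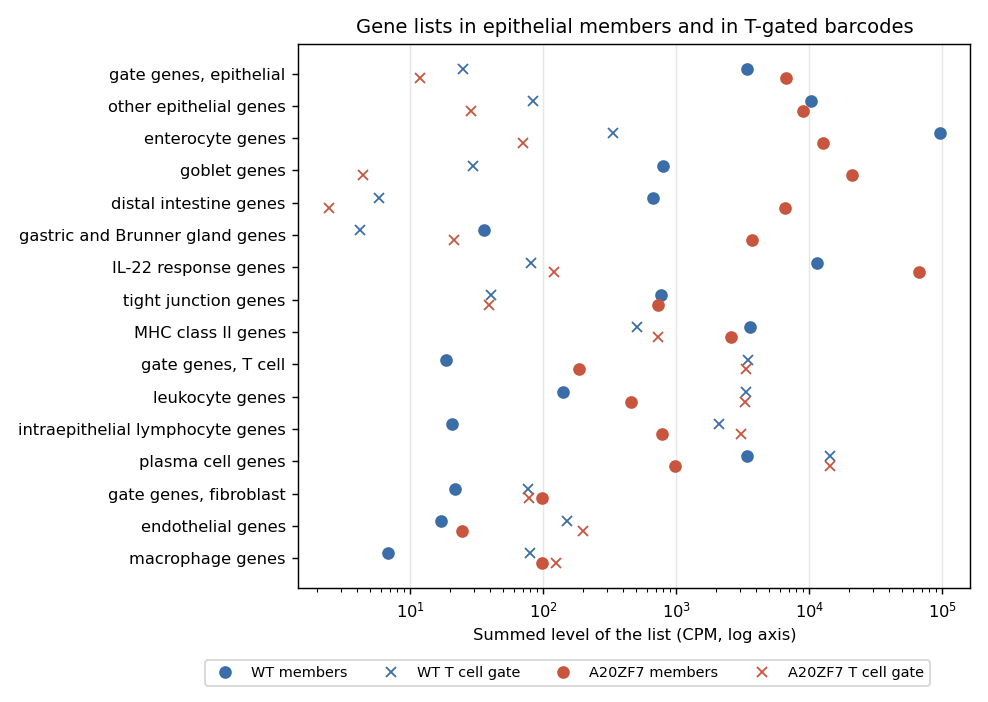
Summed level of each gene list in CPM on a log axis, for epithelial members (circles) and T-gated barcodes (crosses) of the WT and A20ZF7 libraries. The 14 other epithelial genes lie above the T cell gate in both libraries (10337 against 83.2 CPM in WT, 8996 against 28.7 CPM in A20ZF7), and the enterocyte list is higher in WT members (95910 against 12609 CPM) while the IL-22 response list is higher in A20ZF7 members (66341 against 11458 CPM).

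Around the limit of 3 marker UMIs the groups looked as follows. In WT, 8 members had exactly 3 marker UMIs, with a median of 1340 UMIs in all, and their enterocyte genes summed to 50628 CPM. The 10 WT barcodes with 2 marker UMIs from 2 genes had 15193 CPM of enterocyte genes and 171317 CPM of plasma cell genes. In A20ZF7, 7 members had exactly 3 marker UMIs, with 4376 CPM of the 14 other epithelial genes, and the 4 barcodes just outside had 2 UMIs of these genes in all and none of the enterocyte genes. Barcodes just outside were thus few, with lower epithelial levels than those just inside in both libraries.

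Surface antibodies gave a measure that the choice did not use, in WT alone, because the antibody files under the A20ZF7 label are identical to those of WT and were not used. EpCAM, the adhesion protein encoded by *Epcam*, is read out by this oligonucleotide, shown with Ly51 because these 2 antibodies mark epithelium and its brush border.
EpCAM: ACCCGCGTTAGTATG
Ly51: TCCGTTTGTTGTTGT
The median EpCAM count was 21 antibody UMIs in members (interquartile range 14 to 34) and 14 in both T-gated and fibroblast-gated barcodes. As a share of all antibody UMIs, EpCAM was 1.97-fold higher in members than in T-gated barcodes, the third of 138 antibodies, and it ranked first when members were compared with fibroblast-gated barcodes. Ly51, the aminopeptidase encoded by the enterocyte gene *Enpep*, ranked first against T-gated barcodes at 2.14-fold, with a median of 30 against 15 UMIs. CD49b (2.02-fold), CD55 (1.86-fold) and the laminin receptor subunit CD49f (1.54-fold) were the others among the 5 highest of the 138 antibodies. The EpCAM signal was not proportional to *Epcam* RNA, since its median was 20 UMIs in the 110 members with 1 to 3 *Epcam* UMIs and 24.5 in the 60 members with 8 or more, and 36.5 in the 10 members with none. A median of 14 UMIs in cells that should lack EpCAM shows the size of the background under this stain.

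**Figure D2:**
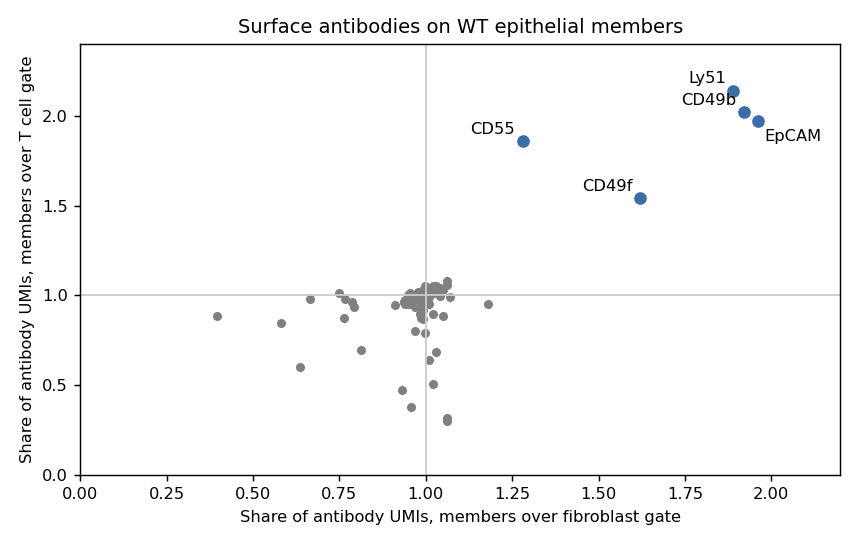
Each point is 1 of 138 surface antibodies in the WT library, with its share of antibody UMIs in epithelial members over that in fibroblast-gated barcodes (x axis) and over that in T-gated barcodes (y axis). Ly51, CD49b, EpCAM, CD55 and CD49f lie between 1.54 and 2.14 on the y axis, above the other antibodies.

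The 2 WT mice could not be separated among epithelial cells. Their hashtag antibodies carry these oligonucleotides, shown because they decide whether values per mouse can be given.
hashtag7: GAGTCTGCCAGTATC
hashtag8: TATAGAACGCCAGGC
A hashtag was assigned with at least 10 UMIs and at least 5 times the other. Of the 330 members, 302 (91.5%) carried both hashtags, 25 carried hashtag 7 and 3 carried hashtag 8, and over all members the median counts of the hashtags were 99 and 60 UMIs. The fibroblast gate was much the same, with 90.7% of barcodes carrying both, and in the T cell gate the share was 61.1%. So many barcodes with both cannot be told apart from doublets, and members were kept as they were. The IL-22 response genes summed to 8011 CPM in the 25 barcodes of hashtag 7 and 3368 CPM in the 3 of hashtag 8, against 11458 CPM in all WT members.

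WT members were largely absorptive enterocytes by their transcripts. The 20 enterocyte genes took a median of 10.0% of a WT member's UMIs (interquartile range 6.86 to 12.2) and 0.256% of an A20ZF7 member's (0.0776 to 1.37). *Fabp1*, the liver-type fatty acid binding protein, ranged from 0 to 63772 CPM over the WT members with a median of 27213 CPM and was found in 309 of them. *Rbp2*, which binds retinol, had a WT median of 21912 CPM, and *Apoa1*, an apolipoprotein of chylomicrons, one of 14603 CPM. In A20ZF7 the medians of all 3 were 0, with *Fabp1* in 12, *Rbp2* in 14 and *Apoa1* in 12 of 34 barcodes. Only 3 A20ZF7 barcodes reached 10000 CPM of *Fabp1*, a level that 274 WT members (83.0%) passed. The summed enterocyte list was 7.61-fold higher in WT (7.15 to 8.10).

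By the number of members above the T cell background, 315 of 330 WT members (95.5%, 92.6 to 97.4) and 22 of 34 A20ZF7 members (64.7%, 46.5 to 80.3) were high for enterocyte genes, where 0.94% and 0.727% of T-gated barcodes were. High means at least 3 UMIs from at least 2 genes of a list and more UMIs than a Poisson count at the list's level in T-gated barcodes passes with a probability of 0.001. With each barcode thinned to 500 UMIs the shares were 95.2% and 41.2%. Goblet genes were high in 13 WT members (3.94%, 2.11 to 6.64) and 4 A20ZF7 members (11.8%, 3.30 to 27.5), with 0.108% and 0% of T-gated barcodes; after thinning these were 3 and 4 barcodes. Genes of Paneth, enteroendocrine and tuft cells were high in 1, 2 and 1 WT members and in no A20ZF7 member, where 0 of 34 has an exact upper limit of 10.3%. These WT shares were 0.303%, 0.606% and 0.303%, beside 0.325%, 0.0723% and 0.108% of WT T-gated barcodes. The Paneth share was thus no higher than in T-gated barcodes. The Paneth-high WT member also held 436 *Spink4*, 175 *Tff3* and 45 *Muc2* UMIs, more of each goblet gene than any other WT member. Stem cell genes were high in 1 A20ZF7 and no WT member, and *Lgr5*, the receptor of crypt stem cells, had no UMI in either library. Proliferation genes were high in 1 WT and no A20ZF7 member.

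The spread among WT members was described by rank correlations with *Apoa4* and *Reg3b*. Over 290 WT members high for enterocyte genes, each thinned to 2000 UMIs (25 shallower ones left out), the rank correlation with *Apoa4*, an apolipoprotein of fat absorption, was 0.68 for *Apoc2*, 0.57 for *Apoa1*, 0.46 for both *Apoc3* and *Fabp2* and 0.38 for the lactase gene *Lct*. It was lower for other genes of fat uptake and export on the enterocyte list, at 0.22 for *Apob*, 0.20 for *Mttp* and 0.10 for *Npc1l1*. The most negative values were those of ribosomal protein genes, at -0.59 for *Rpl41*, -0.54 for *Rps12* and -0.50 for *Rps29* and *Rpl39*, and *Krt19*, a gene used for the choice, was at -0.41. *Reg3g* had a rank correlation of 0.59 with *Reg3b* and of -0.13 with *Apoa4*, and *Reg3b* one of -0.09 with *Apoa4*. These are descriptions across barcodes of 1 library, which share its preparation and a fixed total of UMIs.

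The genotype comparison covered 1226 genes, each reaching 100 CPM and 20 UMIs in whichever library had more of it. In A20ZF7 members 120 genes (9.79%) were at least 2-fold higher and 341 (27.8%) at least 2-fold lower than in WT members, and the median log2 ratio of all 1226 genes was -0.487. A gene at 100 CPM has 147 UMIs in WT but 8.14 in A20ZF7, so 233 of the 341 lower genes rest on fewer than 10 A20ZF7 UMIs. Of the 120 higher genes, 47 encode ribosomal proteins and 67 were at least as high in A20ZF7 T-gated barcodes as in the members. With the T cell level taken off each gene, 42 genes were higher and the count of lower genes stayed within 1.5 times.

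Enterocyte genes were lower in A20ZF7 in sum, with a ratio of 0.131 (0.124 to 0.140). Of the 20 genes, 11 reached these limits in A20ZF7 and the others through WT alone, where they are high, so no count over the list is given. *Fabp1* was at 27677 CPM (27408 to 27948) in WT and 2593 CPM (2255 to 2968) in A20ZF7, or 10.7-fold higher in WT (9.32 to 12.3). *Apoa4* was at 4318 against 258 CPM, 16.7-fold higher in WT (10.9 to 27.0), with 21 A20ZF7 UMIs in 6 barcodes. *Lct* was at 767 against 61.4 CPM, with 4 of its 5 A20ZF7 UMIs in 1 barcode. The sucrase-isomaltase gene *Sis* differed less, at 1688 against 651 CPM, 2.59-fold higher in WT (1.97 to 3.47), and among members with at least 1% of UMIs in enterocyte genes, 310 in WT and 11 in A20ZF7, its ratio of A20ZF7 over WT was 1.10. *Mgam*, the maltase-glucoamylase gene, had the ratio nearest to 1, at 620 against 344 CPM. Among genes with at least 1 A20ZF7 UMI, those of smallest ratio included the metabolic enzymes *Aldh1a1* (592 UMIs in 214 WT barcodes, 1 UMI in A20ZF7), *Ephx2* (565 against 1), *Pck1* (484 against 1), *Cat* (373 against 1) and *Cyp3a11* (721 against 2), with *Mme*, a brush-border peptidase, at 591 against 2 UMIs. Another 14 lower genes had no A20ZF7 UMI and were ranked at the floor of 3 UMIs, which places them behind genes with 1 UMI, so the order among these genes is not resolved at this depth. For *Aldh1a1*, which makes retinoic acid, the WT level was 32.9-fold higher (5.87 to 1300.0).

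IL-22 response genes went the other way, led by *Reg3b* and *Reg3g*. *Reg3b* was found in 287 of 330 WT members, from 0 to 59397 CPM of a barcode with a median of 4823, and in 31 of 34 A20ZF7 members, from 0 to 120229 CPM with a median of 23586. The libraries overlapped up to the WT maximum of 59397 CPM, and some A20ZF7 members lay above every WT member. In WT 109 of 330 members passed 10000 CPM, and in A20ZF7 20 of 34 did. In sum *Reg3b* was at 9115 CPM (8962 to 9271) in WT and 44624 CPM (43185 to 46100) in A20ZF7, a ratio of 4.90 (4.72 to 5.08). In T-gated barcodes it was at 20.3 and 24.4 CPM, with a UMI in 2.60% and 2.06% of them. *Reg3g*, a lectin that kills Gram-positive bacteria, had medians of 741 and 10080 CPM per barcode and summed levels of 1814 and 19627 CPM, a ratio of 10.8 (10.2 to 11.5). *Reg3b* and *Reg3g* were the genes with the most UMIs in A20ZF7 members, while *Fabp1* and *Rbp2* were those in WT members. The list as a whole was at 11458 CPM (11285 to 11633) in WT and 66341 CPM (64582 to 68134) in A20ZF7, a ratio of 5.79 (5.61 to 5.97). This ratio is mostly that of *Reg3b* and *Reg3g*, which gave 13366 and 2660 of the list's 16801 UMIs in WT and 3631 and 1597 of its 5398 UMIs in A20ZF7.

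Of the 17 genes of the list, 5 had enough UMIs. *Reg3b*, *Reg3g* and *Reg3a* reached the limits in WT, while *Lcn2* and *Saa1* reached them through A20ZF7 alone, where they could only be higher, so no count over the list is given. *Lcn2*, which binds bacterial siderophores, was at 7.50 and 1032 CPM, but 64 and 20 of its 84 A20ZF7 UMIs came from 2 barcodes. *Saa1*, a serum amyloid A gene, had no UMI in WT and 20 UMIs in 4 A20ZF7 barcodes, 15 of them in the deepest, which makes it at least 120-fold higher against the floor of 3 UMIs over the WT members. *Reg3a* was at 382 CPM in WT and 123 CPM (10 UMIs) in A20ZF7, a ratio of 0.322 that became 0.843 in members with at least 1% enterocyte UMIs, 0.502 after thinning and 0.931 against the 3 WT barcodes of hashtag 8. *Duox2* and its maturation factor *Duoxa2*, which make hydrogen peroxide at the brush border, were below the limit of 20 UMIs, with 197 against 47.7 CPM for *Duox2* (ratio 4.12, 2.23 to 7.16) in 10 A20ZF7 and 37 WT barcodes. *Cxcl1* had 3 and 1 UMIs, and *Saa2*, *S100a8* and *S100a9* had none in either library. Outside the list, *Dmbt1*, a scavenger receptor-like mucosal glycoprotein, was at 301 CPM in 72 WT barcodes and 2864 CPM in 22 A20ZF7 barcodes, a ratio of 9.52 (8.09 to 11.2), while *Reg1* was similar in sum (5142 and 4498 CPM) but present in 225 WT and 8 A20ZF7 members, and its ratio of 0.875 turned above 1 in 3 of 19 alternative settings.

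The start regions of *Reg3b* and *Reg3g*, neighbors on mouse chromosome 6, are shown because these genes had the highest levels in A20ZF7, with those of *Fabp1* and *Fabp6*, which separate the libraries in the other respects. They run from 250 bases before to 50 bases after the annotated start (RefSeq, GRCm38.p6, the assembly also called mm10) and are written in the direction of the gene. Capitals mark TTCNNNGAA, the palindromic core bound by STAT proteins such as STAT3 downstream of the IL-22 receptor.
Reg3b at chr6:78370635-78370934, plus strand: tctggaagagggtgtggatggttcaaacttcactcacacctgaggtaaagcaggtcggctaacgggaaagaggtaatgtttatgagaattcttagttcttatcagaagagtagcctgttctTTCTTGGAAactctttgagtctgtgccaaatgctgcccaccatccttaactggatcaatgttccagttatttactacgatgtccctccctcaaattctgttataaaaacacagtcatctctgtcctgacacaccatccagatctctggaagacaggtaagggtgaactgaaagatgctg
Reg3g at chr6:78468825-78469124, minus strand: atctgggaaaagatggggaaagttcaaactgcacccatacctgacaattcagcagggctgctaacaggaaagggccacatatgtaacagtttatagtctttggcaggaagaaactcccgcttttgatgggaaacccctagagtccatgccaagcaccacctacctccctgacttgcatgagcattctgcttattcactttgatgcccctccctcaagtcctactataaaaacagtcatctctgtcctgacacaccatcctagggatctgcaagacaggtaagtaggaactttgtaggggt
Fabp1 at chr6:71199629-71199928, plus strand: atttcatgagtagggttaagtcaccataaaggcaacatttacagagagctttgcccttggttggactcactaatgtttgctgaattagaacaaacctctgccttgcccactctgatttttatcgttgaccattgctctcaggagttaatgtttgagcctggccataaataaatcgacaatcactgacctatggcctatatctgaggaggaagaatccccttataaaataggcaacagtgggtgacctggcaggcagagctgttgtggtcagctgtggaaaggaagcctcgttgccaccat
Fabp6 at chr11:43601513-43601812, minus strand: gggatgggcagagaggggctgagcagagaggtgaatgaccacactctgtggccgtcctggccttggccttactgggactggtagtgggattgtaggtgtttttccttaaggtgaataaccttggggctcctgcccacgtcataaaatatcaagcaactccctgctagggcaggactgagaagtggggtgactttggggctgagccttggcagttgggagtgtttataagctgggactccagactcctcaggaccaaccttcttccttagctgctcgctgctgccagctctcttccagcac
The letters occur 1 time in the *Reg3b* window, starting 129 bases before the annotated start, and not in the other 3 windows nor in that of *Saa1*. Of 32817 such windows in the table, 8.29% hold them, on either strand since the motif is its own reverse complement. A match is a description of letters, and no binding was measured.

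The A20ZF7 members differed among themselves. The distal intestine gene with the most UMIs was *Slc51a* in WT and *Fabp6* in A20ZF7. *Fabp6*, the bile acid binding protein of ileal enterocytes, had 313 UMIs in 7 WT barcodes (213 CPM) and 494 UMIs in 14 A20ZF7 barcodes (6071 CPM), a ratio of 28.4 (24.6 to 32.9). A single barcode held 211 of the WT UMIs, and the ratio ran from 11.5 to 96.5 over the 16 alternative settings that gave one. The share of members high for the distal list was 89 of 330 in WT (27.0%, 22.3 to 32.1) and 9 of 34 in A20ZF7 (26.5%, 12.9 to 44.4). After thinning to 500 UMIs it was 0.909% (0.188 to 2.63) in WT and 8.82% (1.86 to 23.7) in A20ZF7. At least 3 *Fabp6* UMIs were found in 9 of 34 A20ZF7 members and 5 of 330 WT members, and no barcode in either library had these together with 10000 CPM of *Fabp1*. The basolateral bile acid transporter genes *Slc51a* and *Slc51b* had ratios of 0.911 (0.542 to 1.44) and 1.18 (0.691 to 1.91), and the ileal apical transporter gene *Slc10a2* had 2 and 4 UMIs. The 5 proximal genes summed to 344 and 221 CPM (ratio 0.644, 0.378 to 1.03), and *Gata4*, the transcription factor of the proximal small intestine, was at 74.3 and 73.7 CPM. The methods describe proximal tissue for lamina propria cells, and these values are given as measured.

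The *Reg3b* level was also summed by *Fabp6*. In the 9 A20ZF7 members with at least 3 *Fabp6* UMIs it was at 78097 CPM and found in all 9, while in the 5 such WT members it was at 5595 CPM and found in 2, a ratio of 14.0 (11.1 to 17.7). The WT value rests on 1 barcode, at 15912 CPM of *Reg3b*, since the other with any was at 169 CPM. The deepest A20ZF7 barcode gave 1052 of the 2073 *Reg3b* UMIs of the 9 A20ZF7 members, and another of them, ranked 11 by depth, had 2 *Reg3b* UMIs among 2972. High levels were not limited to them, since the barcodes ranked 4 and 5, with no *Fabp6*, held 382 *Reg3b* UMIs among 4176 and 349 among 4078. In members with fewer than 3 *Fabp6* UMIs, 25 in A20ZF7 and 325 in WT, *Reg3b* was at 28418 and 9149 CPM, a ratio of 3.11 (2.95 to 3.27), and *Reg3g* had a ratio of 5.64 (5.14 to 6.18). The whole IL-22 response list had a ratio of 3.58 (3.42 to 3.74) there, against 5.79 in all members. Among barcodes with at least 10000 CPM of *Fabp1*, 3 in A20ZF7 and 274 in WT, *Reg3b* was at 15354 and 9854 CPM, a ratio of 1.56 (1.30 to 1.85). Of its 131 UMIs in these 3, 120 were in 1 barcode, and the others had 4 and 7 UMIs, which is below the WT median per barcode. These limits on *Fabp6* and *Fabp1* were set after the values had been seen.

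**Figure D3:**
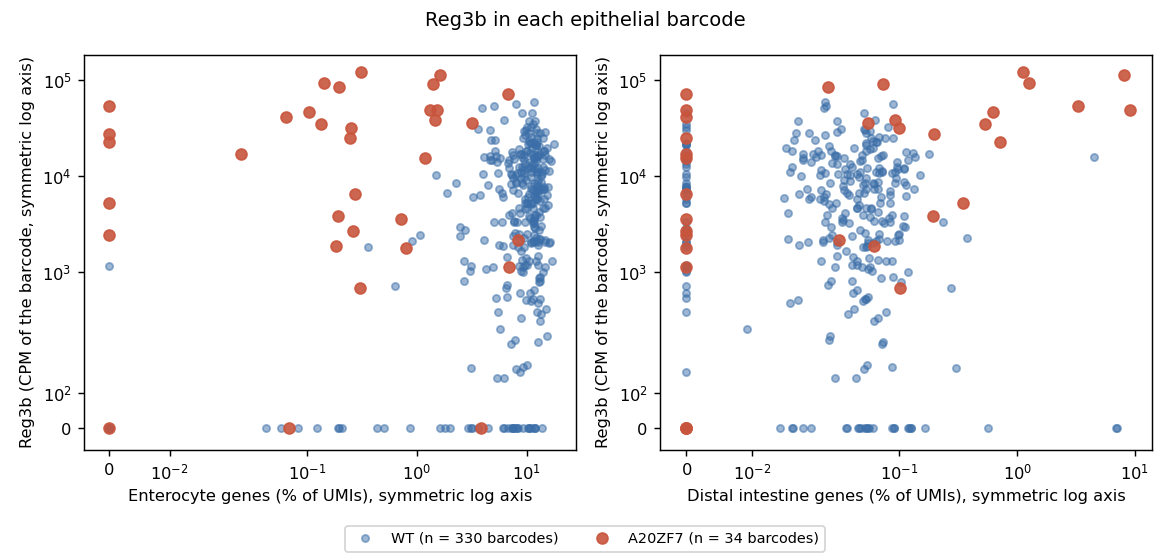
*Reg3b* level (CPM of the barcode) against the share of UMIs in enterocyte genes (left) and distal intestine genes (right), 1 point per epithelial barcode, on axes that are logarithmic above a small linear range around 0. WT barcodes (n = 330) gather near 10% enterocyte genes with *Reg3b* spread from 0 to 59397 CPM, and A20ZF7 barcodes (n = 34) spread to lower enterocyte shares and reach 120229 CPM.

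Single A20ZF7 barcodes can be read one by one. The deepest, with 8750 UMIs, held 1052 *Reg3b*, 493 *Reg3g*, 15 *Saa1*, 85 *Fabp6* and no *Fabp1* UMIs. The next, with 7267 UMIs, held 635 UMIs of *Spink4*, 311 of *Tff3* and 33 of *Muc2*, genes of goblet cell secretion, together with 180 of *Reg3b*. The barcode ranked 11 by depth was the other one with many goblet UMIs, with 139 *Spink4*, 162 *Tff3* and 39 *Muc2* UMIs but 2 *Reg3b* UMIs. The barcode ranked 6 held 172 UMIs of gastric and Brunner gland genes, 88 of them of the gastrokine *Gkn3*, with 20 *Lcn2* and 10 *Olfm4* UMIs. The barcode ranked 15 had 64 *Lcn2* UMIs among 1986 and no *Reg3b*. The barcodes ranked 7 and 10 had 250 and 275 enterocyte UMIs, the most of any A20ZF7 member.

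**Figure D4:**
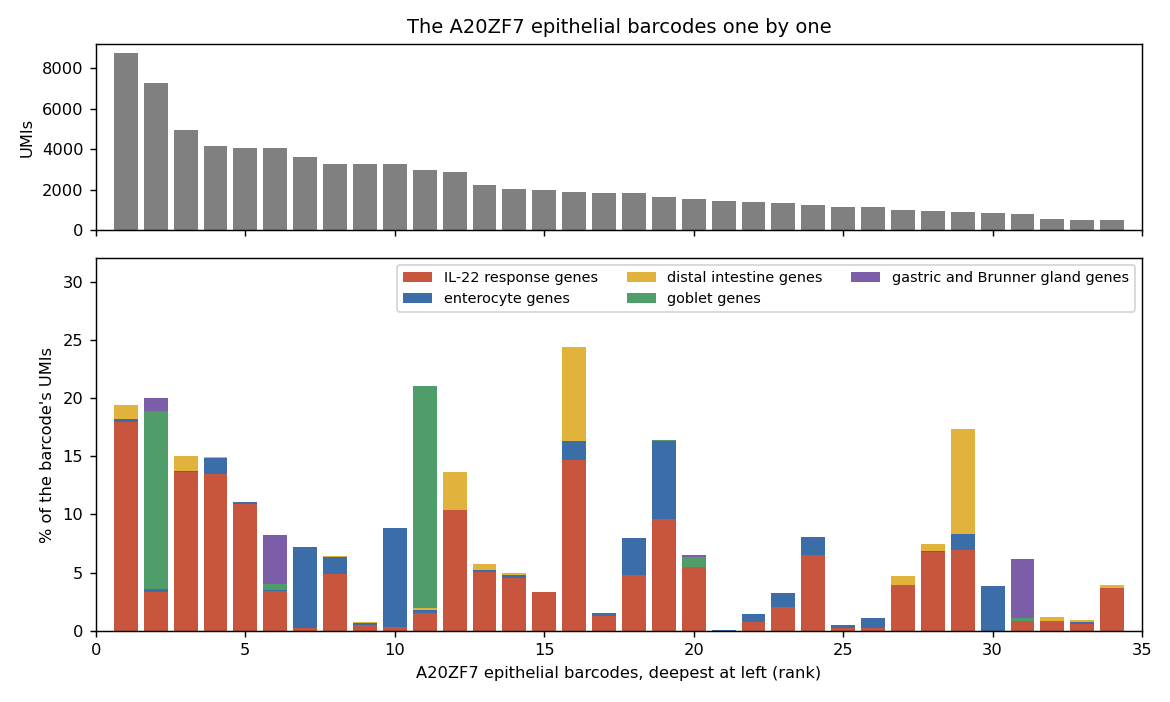
The 34 A20ZF7 epithelial barcodes ordered by depth, with UMIs per barcode (top) and the percent of those UMIs in 5 gene lists, stacked (bottom). IL-22 response genes reach 17.9% of UMIs in the deepest barcode, goblet genes take most of the colored share in the barcodes ranked 2 and 11, and the barcodes ranked 7 and 10 hold 250 and 275 enterocyte UMIs.

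Goblet and gastric genes were higher in A20ZF7 in sum without being common. Of 9 goblet genes, *Tff3* and *Spink4* reached the limits in WT and another 5 through A20ZF7 alone, where they could only be higher, so no count is given. In A20ZF7 64.5% of the list's UMIs came from 1 barcode, and in WT 76.1% did. *Tff3* was at 145 CPM in 19 WT barcodes and 5813 CPM in 2 A20ZF7 barcodes. *Spink4* was at 442 CPM in 25 and 9746 CPM in 8 barcodes, and without the goblet-high and gastric-high members its ratio of 22.1 became 1.06 (0.283 to 2.82). *Car1*, a carbonic anhydrase, had the largest ratio of the rule, with no UMI in WT and 243 UMIs in 2 A20ZF7 barcodes, at least 1460-fold higher. *Gkn3* had none and 90 UMIs, at least 541-fold higher. Of the 120 higher genes, 17 had at least 50% of their A20ZF7 UMIs in 1 barcode and 97 were found in 10 or more.

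Receptors and barrier genes showed smaller or unresolved differences. *Il22ra1*, the IL-22 receptor chain of epithelial cells, had 7 UMIs in 7 WT members (4.77 CPM, 1.92 to 9.84), no UMI in T-gated barcodes of either library and none in A20ZF7 members, where 3 UMIs correspond to 36.9 CPM, so a difference was not detectable at this depth. *Il10rb* was at 59.3 and 36.9 CPM, with 3 UMIs in A20ZF7. Tight junction genes summed to 767 CPM (722 to 813) in WT and 725 CPM (552 to 935) in A20ZF7, a ratio of 0.946 (0.715 to 1.23). None of the 3 with enough UMIs passed 2-fold, where 9.79% of all 1226 genes were at least 2-fold higher and 27.8% lower. A count over 3 genes is too small to set apart from these shares. The tight junction list was lower in A20ZF7 on both sides of a split at 1% enterocyte UMIs. With at least 1% it was at 745 CPM in WT and 582 CPM in A20ZF7, there on 14 UMIs. Under 1% it was at 1408 CPM (67 UMIs) in WT and 785 CPM (45 UMIs) in A20ZF7. *Ocln*, occludin, had 5 A20ZF7 UMIs (ratio 0.597, 0.191 to 1.42) and *Cldn4* 2. The interval for *Cldn4*, 0.0884 to 2.86, spans 2-fold in both directions and that for *Ocln* reaches past 2-fold lower.

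Of the genes through which epithelium addresses immune cells, *Pigr*, the receptor that carries IgA across the sheet, was at 4361 and 3515 CPM (ratio 0.806, 0.713 to 0.908). *Ccl25*, the chemokine of small intestinal homing, was at 947 and 356 CPM (ratio 0.377, 0.251 to 0.543), but with a ratio of 0.854 (0.520 to 1.32) in members with at least 1% enterocyte UMIs, and *Il18* at 316 and 86.0 CPM with 7 A20ZF7 UMIs. The 10 mediator genes together had a ratio of 0.727 (0.656 to 0.804). Their ratio was 0.878 (0.74 to 1.04) in members with at least 1% enterocyte UMIs. It turned to 1.83 (1.46 to 2.3) in those under 1%, 23 in A20ZF7 and 20 in WT. MHC class II genes were at 3554 CPM in WT and 2556 CPM in A20ZF7 (ratio 0.719, 0.623 to 0.826), against 503 and 725 CPM in T-gated barcodes. The list's ratio was 1.2 (0.979 to 1.46) in members with at least 1% enterocyte UMIs and 1.78 (1.25 to 2.56) in those under 1%. Its direction thus turned when members were split by enterocyte share. None of 4 genes passed 2-fold, too few to set apart from the 9.79% higher and 27.8% lower of all 1226 genes. The ratio of *Cd74*, the invariant chain, was 0.804 in all members and 1.25 in those with at least 1% enterocyte UMIs. Stress and immediate early genes were close in sum, at 4843 and 4732 CPM (ratio 0.977, 0.880 to 1.08), with 8208 and 5296 CPM in T-gated barcodes. None of 8 genes passed 2-fold, where 9.79% of all 1226 genes were higher and 27.8% lower. NF-κB genes summed to 617 and 1352 CPM, a ratio of 2.19 (1.78 to 2.67), below the 3596 and 4210 CPM of T-gated barcodes. In members with at least 1% enterocyte UMIs they were at 603 CPM in WT and 1539 CPM in A20ZF7, there on 37 UMIs. The levels were closer in members under 1%, at 1030 CPM (49 UMIs) in WT and 1274 CPM (73 UMIs) in A20ZF7. Interferon genes were at 368 and 356 CPM and cytokine receptor genes at 470 and 565 CPM, both under their T-gated levels. *Tnfaip3* itself was at 54.6 and 270 CPM (ratio 4.96, 2.94 to 8.03), with 22 UMIs in 15 A20ZF7 barcodes and 1291 CPM in A20ZF7 T-gated barcodes. Point mutations do not remove the transcript, so this value does not check the genotype label.

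**Figure D5:**
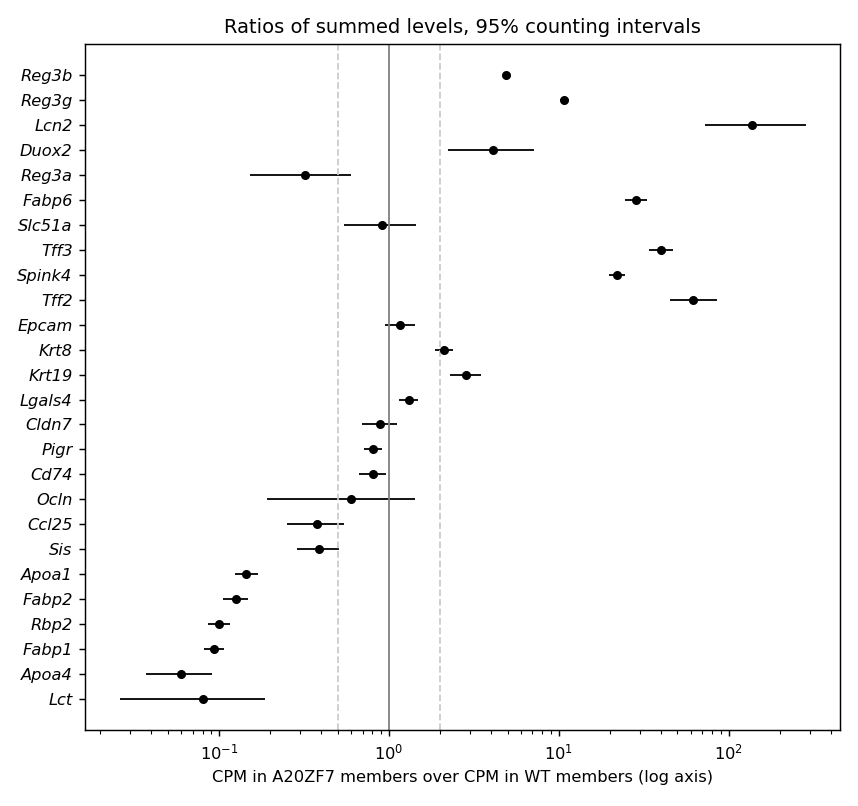
CPM in A20ZF7 members over CPM in WT members for 26 genes of the fixed lists on a log axis, with 95% intervals that cover counting error only; dashed lines mark 2-fold in either direction. *Reg3b*, *Reg3g*, *Lcn2*, *Fabp6*, *Tff3*, *Spink4* (22.1, but 1.06 without goblet-high and gastric-high members) and *Tff2* lie to the right and the enterocyte genes from *Sis* to *Lct* to the left, while *Pigr* and *Cd74* lie near 1 (0.806 and 0.804).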

How the data were processed

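Gene expression libraries and the WT antibody library were analysed. The values are counts of UMIs per gene and barcode, deposited by the authors without a filter on cells. Cell Ranger 7.1, R 4.3.3, Seurat 4.3 and mm10 are named in the submitters' notes, and the matrix headers give Cell Ranger 8.0.0 for gene expression and 7.1.0 for antibodies. The libraries list different annotations, so the 31950 gene IDs of both were used (1746 more in WT, 335 more in A20ZF7). WT held 35289432 UMIs in 576003 barcodes and A20ZF7 54587004 UMIs in 612069 barcodes. The 3 antibody files of A20ZF7 are identical to those of WT and were left out. Free RNA was not removed and doublets were left in.

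Computation was in Python 3.11.15 with pandas 2.3.3, scipy 1.17.1 and numpy 2.4.6, and figures were drawn with matplotlib 3.10.9. UMIs were summed over members and divided by their total. Poisson intervals (CPM), binomial intervals (shares) and conditional intervals (ratios of CPM) are exact, while the interval of the ratio of shares was formed on the log scale. Differential tests were not run, as cells are not replicates. Barcode classes were rebuilt here, so differences from the study may come from them. The members and gene lists were chosen with earlier results of these data known. Of 292 list genes, 290 were found. Genes were named when in a list, among the 10 largest or 10 smallest ratios, among 15 with the largest ratio over T-gated barcodes, or among the 10 with most UMIs of a library, without mitochondrial, ribosomal protein, immunoglobulin, T cell receptor, Y-linked, *Xist* and unnamed genes in the ratios. The ratios were also tried on simulated data, and no value from that step is reported or relied on here. Of 19 alternative settings, 12 were planned and 7 were chosen after seeing the data.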

Additional observations from a re-analysis of the deposited data

How the results depend on the processing

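The IL-22 response ratio (A20ZF7 over WT, 5.79) stayed above 1 and the enterocyte ratio (0.131) below 1 in all 19 alternative settings, over 3.58 to 19.7 and 0.108 to 0.382. The IL-22 ratio was 6.01 with at least 1000 UMIs, 5.56 with up to 5000 genes, 6.1 with up to 30% mitochondrial UMIs, 8.28 with hashtag 7 alone and 4.37 thinned to 500 UMIs. Both ratios, IL-22 first, were 6.57 and 0.108 with at least 5 marker UMIs, 6.65 and 0.114 with at most 1 UMI of other cell types, 6.23 and 0.141 without mitochondrial, ribosomal protein and immunoglobulin genes in the total, and 19.7 and 0.149 with the 3 barcodes of hashtag 8 alone. In the 7 settings chosen after seeing the data, the IL-22 ratio was 4.44 with equal weight per barcode, and both ratios were 5.3 and 0.12 without the enterocyte list in the total, 4.6 and 0.143 without the deepest A20ZF7 member, 4.21 and 0.168 without the deepest 3, 3.58 and 0.177 under 3 *Fabp6* UMIs, 6.59 and 0.158 without goblet or gastric members, and 5.08 and 0.382 with at least 1% enterocyte UMIs. Leaving out WT barcodes with both hashtags, with all A20ZF7 barcodes kept, gave an IL-22 ratio of 8.87 and a share ratio of 0.158 against 0.0617. It also gave 89.3% enterocyte-high WT members and a WT IL-22 level of 7480 CPM. That level was 8011 CPM for hashtag 7 (88% enterocyte-high) and 3368 CPM for hashtag 8 (100% enterocyte-high, 0% goblet-high, EpCAM 1.38-fold over T-gated barcodes).

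The 120 higher genes became 51 after thinning, 42 with the T cell level taken off and 19 with at least 1% enterocyte UMIs, and the 341 lower genes became 22 with hashtag 8 alone, where fewer genes were compared. In a separate thinning draw 38.2% of A20ZF7 members were enterocyte-high and 1.52% of WT members goblet-high. Across the settings 579 values were compared, and not all of them stayed close. Among values whose interval leaves out 1, 6 turned direction, namely *Reg1* (1.19 with at most 1 UMI of other cell types, 1.06 with hashtag 7, 1.29 under 3 *Fabp6* UMIs), *Lgals4* (0.987 thinned), and *Cd74* (1.25) and *Sis* (1.1) with at least 1% enterocyte UMIs. The *Epcam* ratio of 1.17, whose interval holds 1, was 0.944 under 3 *Fabp6* UMIs. The MHC class II list, at 0.719 over all members, had a ratio of 1.2 (0.979 to 1.46) with at least 1% enterocyte UMIs. The causes were not tested. The summed depth of the members limits A20ZF7, where 3 UMIs are 36.9 CPM. No paired analysis was possible because each genotype is 1 pool.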
